A study of Drosophila melanogaster with 4 samples.

Results

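Histone H4 is one of the core proteins of the nucleosome, and the regions described here are the stretches of the Drosophila melanogaster X chromosome that were called enriched for it in late embryos. Members were chosen by position alone: enriched regions on the sequence named X that end at or before base 22000000 of the FlyBase r5 build, which leaves out the last 0.42 Mb on the centromere side. By this rule X held 2167 of the 15405 enriched regions of replicate 1 (14.1%), 1743 of the 12952 of replicate 2 (13.5%) and 3434 of the 22525 of the combined list (15.2%). A further 19, 14 and 40 regions of X in the same lists ended beyond the limit. At the limit itself, replicate 1 had a region from 21944041 to 21946463 with a score of 0.733 just inside and one from 22006747 to 22008494 with a score of 0.586 just outside. In replicate 2 the regions on either side spanned 21944125 to 21946191 (score 0.675) and 22013721 to 22015264 (score 0.926), and in the combined list 21950009 to 21951274 (0.540) and 22006850 to 22008514 (0.307).

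The chromatin came from embryos of Oregon-R, a wild-type laboratory strain, at 14 to 16 h of development. It was crosslinked with formaldehyde and precipitated with an antibody whose target was H4, and the DNA was sequenced (ChIP-seq). The series held 2 H4 ChIP libraries and 2 input libraries of unprecipitated genomic DNA, each input serving as the control of the ChIP library of the same replicate number. Strain, genotype and stage were the same in all 4 libraries. The labels give neither the sex of the embryos nor whether the replicates came from separate collections, so the spread between replicates may be technical.

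H4 sits in every nucleosome with H2A, H2B and H3, so an antibody to H4 itself follows where nucleosomes were recovered rather than a particular modification. The X differs from the autosomes in Drosophila in copy number between the sexes: males carry a single X and raise its transcription through the MSL complex, a ribonucleoprotein that coats the male X and acetylates a lysine in the H4 tail. This is background on the chromosome. The lists record enrichment of H4 over input and carry no information on acetylation. Arms 2L, 3L and 3R, 75.5 Mb of autosomal sequence in all, were used for comparison. X and the arms were measured within the same 2 libraries, and an exact two-sided sign-flip permutation test over 2 libraries cannot give a p under 0.5. Each difference is therefore given in each list, with its mean and SD over both lists.

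Less of X was in H4-enriched regions than of these autosomal arms in every list. The covered share, the percentage of bases inside enriched regions, was 24.7% on X and 32.6% on the 3 arms together in replicate 1, and 17.9% on X and 26.0% on the arms in replicate 2. Single arms ranged from 28.4% (2L) to 37.3% (3R) in replicate 1 and from 23.2% to 29.7% in replicate 2, so X was below each of them. The share of X relative to the arms was 0.76 in replicate 1 and 0.69 in replicate 2, or 0.72 ± 0.05 (SD, n = 2), a distance from 1 that was larger than the spread between the replicates. The combined list gave 38.4% for X and 47.9% for the arms, a ratio of 0.80.

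The lower share came with fewer regions more than with narrower ones. X had 98.5 regions per Mb in replicate 1 against 124 on the arms, and 79.2 in replicate 2 against 104. The ratio of region number per Mb was 0.78 ± 0.02 (SD, n = 2), while the ratio of mean width was 0.93 ± 0.04. Median widths on X were 1975 bp in replicate 1 and 1864 bp in replicate 2, against 1993 bp and 1966 bp on the arms. The difference in median width, -60.0 ± 59.4 bp, was about as large as its spread over the replicates. Wide regions were scarcer on X: those of at least 10 kb made up 0.55% of the regions of X in replicate 1 (12 regions) and 0.40% in replicate 2 (7 regions), against 0.99% and 0.62% on the arms. The longest region of X was 19550 bp in replicate 1, from 6708006 to 6727555, and 12974 bp in replicate 2, from 20268818 to 20281791.

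Regions on X also stood farther apart. The median gap between neighbours was 3223 bp on X and 2437 bp on the arms in replicate 1, and 4054 bp on X and 3021 bp on the arms in replicate 2, a ratio of 1.33 ± 0.01 (SD, n = 2). The whole distribution was displaced: 14.5% of the gaps of X were at most 500 bp in replicate 1 and 11.7% in replicate 2, against 17.3% and 16.0% on the arms, and the 90th percentile was 19008 bp and 27669 bp on X against 13326 bp and 17536 bp. Gaps over 20 kb held 35.3% of the length of X in replicate 1 and 49.0% in replicate 2. On the arms they held 22.2% and 32.4%, with 2L (29.4% and 38.9%) nearest to X and 3R (14.9% and 23.8%) farthest from it. Relative to its mean, the spread of gap lengths was similar on X and the arms, with an SD of 1.60 and 1.63 times the mean on X and 1.67 and 1.74 times on the arms.

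**Figure D1:**
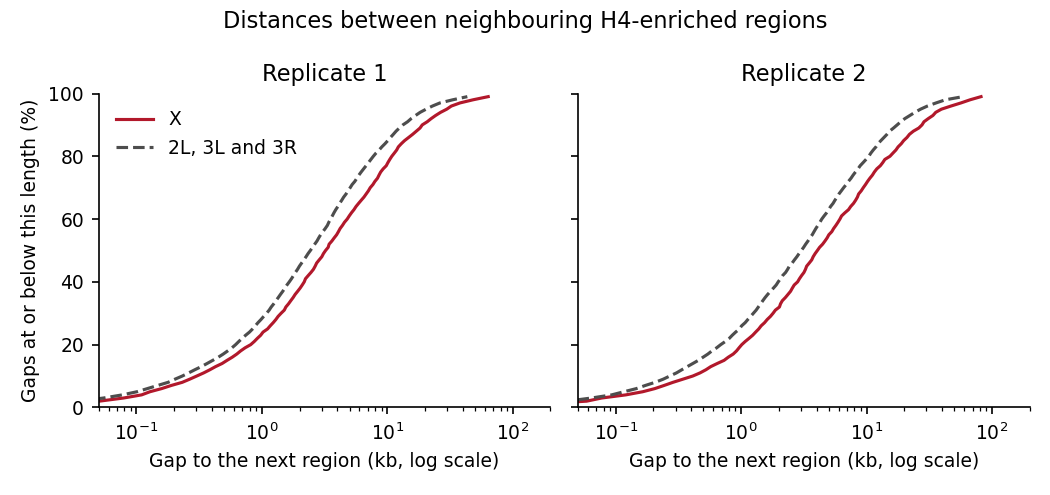
Cumulative percentage of gaps between neighbouring H4-enriched regions (y axis) by gap length in kb (x axis, log scale), for X and for 2L, 3L and 3R together, in replicate 1 (left) and replicate 2 (right). The curve of X lies to the right of the curve of the arms in both replicates, with medians of 3223 and 4054 bp on X and 2437 and 3021 bp on the arms.

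Scores on X were higher than on the autosomal arms. The score is the value that the authors gave to each region, and its scale and log base are not stated, so it is compared here only within a list. Only regions that passed the unstated calling threshold have a score, and no read counts were used. The part of read depth on X and the arms in the scores, region numbers and covered shares was not tested. The median was 0.647 on X in replicate 1, against 0.553 on 2L, 0.555 on 3L and 0.551 on 3R. In replicate 2 it was 0.663 on X, against 0.568, 0.576 and 0.567. The difference between X and the arms together was 0.0945 in replicate 1 and 0.0932 in replicate 2 (0.0939 ± 0.0009, SD, n = 2), which was larger than the distance between the autosomal arms. The combined list had a smaller difference, 0.0637, with medians of 0.447 on X and 0.383 on the arms.

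The displacement was greatest at the low end of the scores and small at the high end. The 5th percentile of X lay above that of the arms by 0.108 in replicate 1 and 0.106 in replicate 2, and the 95th percentile by 0.0369 and 0.0281. The lowest score on X was 0.2004 in replicate 1 and 0.224 in replicate 2, whereas scores on the arms reached down to 0.0210 and 0.0338. Scores under 0.4 were carried by 4.75% of the regions of X in replicate 1 and 1.38% in replicate 2, against 16.4% and 9.61% on the arms.

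Scores of X were also higher at matched width. Wider regions scored higher on X and on the arms. The Spearman rho of width and score on X was 0.71 in replicate 1 (2167 regions) and 0.66 in replicate 2 (1743 regions). On the arms it was 0.73 (9358 regions) and 0.72 (7849 regions). Regions of a list share their library and are not replicates. Within each of 6 width classes the median of X was above that of the arms in both replicates. Among regions under 1500 bp it was 0.536 on X and 0.433 on the arms in replicate 1, and 0.584 on X and 0.471 on the arms in replicate 2. Among regions of 5 to 10 kb it was 0.875 on X and 0.795 on the arms in replicate 1, and 0.826 on X and 0.770 on the arms in replicate 2. Over the 6 classes the difference ranged from 0.0644 to 0.104 in replicate 1 and from 0.0562 to 0.113 in replicate 2. The class of 10 kb and more rested on 12 and 7 regions of X.

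**Figure D2:**
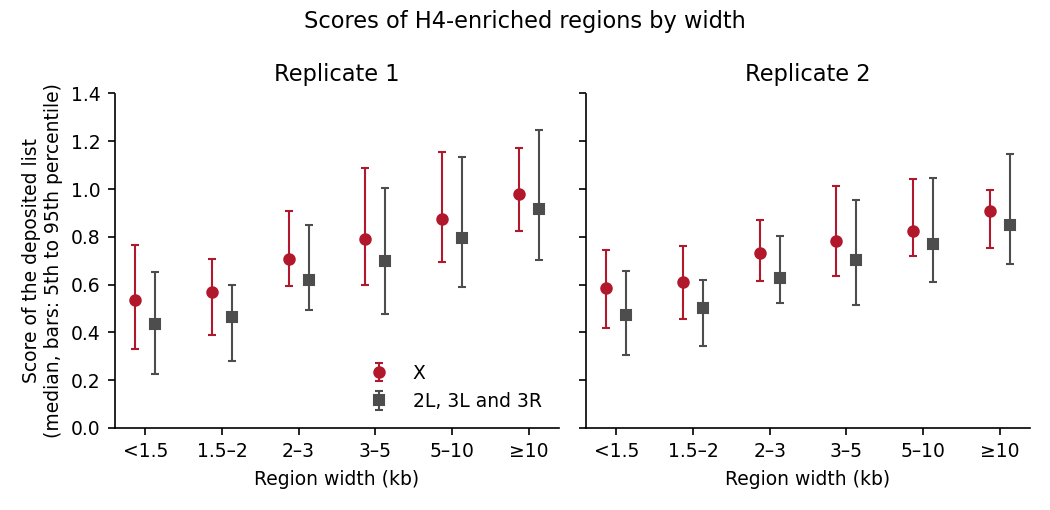
Median score of the deposited lists (y axis; bars run from the 5th to the 95th percentile of the regions) by region width in kb (x axis), for X and for 2L, 3L and 3R together, in replicate 1 (left) and replicate 2 (right). The median of X is the higher one in all 6 width classes of both replicates, by 0.0562 to 0.113.

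Cut at the same scores, X had fewer regions per Mb than the arms at low scores and more above its own median score. The same scores gave the higher medians of X described above, so this comparison and the higher scores are not separate results. Whether X lacked low-scoring regions or its scores were displaced upward was not tested. The scores of X were cut into 4 ranges of equal region number, and the arms were cut at the same scores. At or below the lowest cut (0.551 in replicate 1, 0.583 in replicate 2) X had 24.6 and 19.8 regions per Mb, against 61.4 and 56.4 on the arms, a ratio of 0.40 and 0.35. In the next range the numbers were close, with ratios of 0.95 and 0.97. Above the median score of X, X had more regions per Mb than the arms, by 1.45 and 1.48 times in the third range and by 1.25 and 1.44 times in the top one. These high-scoring regions were narrower on X, with medians in the top range of 3380 bp and 2787 bp on X against 4023 bp and 3851 bp on the arms. The covered shares of X and the arms were close there: in the top range 9.87% of X and 9.50% of the arms in replicate 1, and 6.61% of X and 6.36% of the arms in replicate 2. With the higher scoring 50% of each whole list the covered share of X relative to the arms was 0.97 ± 0.04, against 0.72 with all regions. Because the ranges were set by X itself, equal numbers across its own ranges carry no information.

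**Figure D3:**
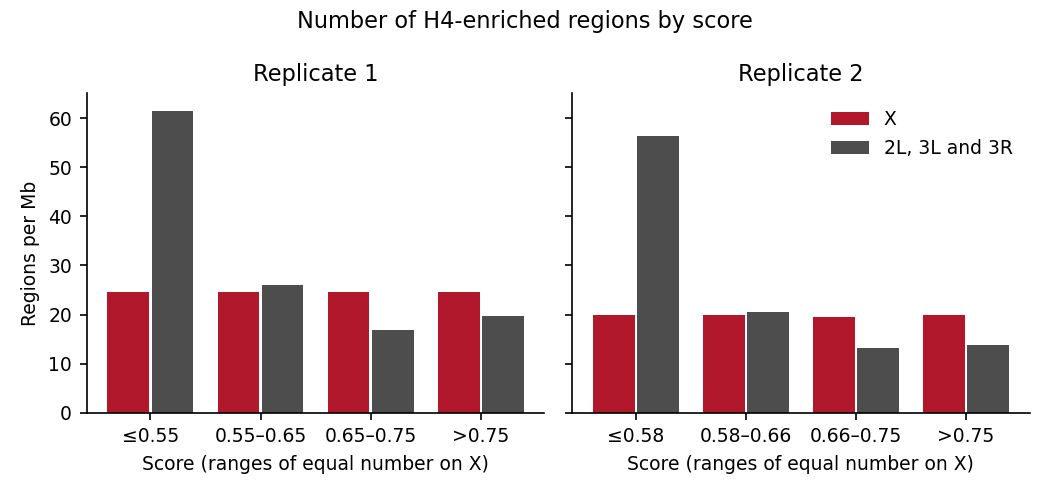
Number of H4-enriched regions per Mb (y axis) in 4 score ranges that hold equal numbers of regions of X (x axis), for X and for 2L, 3L and 3R together, in replicate 1 (left) and replicate 2 (right). In the lowest range X has 24.6 and 19.8 regions per Mb and the arms 61.4 and 56.4, while in the top range X has 24.6 and 19.8 and the arms 19.7 and 13.8.

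The higher scores ran along the whole chromosome. In 1 Mb windows the median score of X lay between 0.615 and 0.702 in replicate 1 and between 0.615 and 0.699 in replicate 2. The 74 windows of the arms had medians from 0.482 to 0.632 in replicate 1 and from 0.494 to 0.673 in replicate 2. All 22 windows of X were above the middle window of the arms in both replicates, and 16 of them in replicate 1 and 6 in replicate 2 were above every window of the arms. In replicate 1 the lowest window of X was passed by 2 windows of the arms, and in replicate 2 by 4.

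The covered share, by contrast, was unevenly spread along X, as it was along the arms. Windows of the arms ran from 11.4 to 56.6% in replicate 1 and from 8.98 to 50.2% in replicate 2. The SD across windows was 0.39 and 0.41 times the mean on X, against 0.32 and 0.34 times on the arms. On X the share was highest from 1000001 to 2000000, where 57.9% of the bases were in enriched regions in replicate 1 and 43.6% in replicate 2. The same window of 3L had 56.6% and 50.2%. The next window, from 2000001 to 3000000, had 36.8% and 26.8%, and the window from 19000001 to 20000000 had 35.0% and 23.2%. At the other end of the order were the window on the centromere side, from 21000001 to 22000000, with 13.3% and 9.90%, the window from 3000001 to 4000000 with 15.6% and 9.30%, and the window from 12000001 to 13000000 with 14.6% and 10.9%. Thus the densest stretch and one of the sparsest lay 1 Mb apart. Replicate 1 was above replicate 2 in all 22 windows, and the shares of both lists were correlated across these windows (Pearson r = 0.99, Spearman rho = 0.98). The r over 220 windows of 100 kb was 0.96. On the arms these values were close, with r = 0.98 and rho = 0.99 over 1 Mb windows and r = 0.95 over 100 kb windows. Windows of 1 library share its depth and threshold, so these correlations are descriptions.

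Outside its densest windows X was low throughout. In replicate 1, 18 of 22 windows were under the median window of the arms (32.4%), and in replicate 2 it was 20 of 22 (26.0%). The 4 densest windows by the mean of both lists, which add the window from 18000001 to 19000000 (32.7% and 24.2%, named after its values were seen), held 29.8% of the covered bases of X in each replicate on 18.2% of its length. Without the densest window the ratio of X to the arms was 0.71 in replicate 1 and 0.64 in replicate 2. The arms kept their own densest windows, so this ratio could only fall and says nothing further on the rest of X. Dense windows had more regions, wider regions and higher scores: across the 22 windows the covered share of replicate 1 had a Pearson r of 0.97 with the number of regions, 0.88 with their mean width and 0.74 with their median score, and in replicate 2 these were 0.97, 0.78 and 0.71. On the arms they were 0.94, 0.75 and 0.37 in replicate 1, and 0.96, 0.63 and 0.37 in replicate 2. Number and mean width together make up the covered share, so the relations with these 2 are in part fixed. Between windows of X the number of regions ran from 63 to 174 in replicate 1 and from 43 to 155 in replicate 2.

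**Figure D4:**
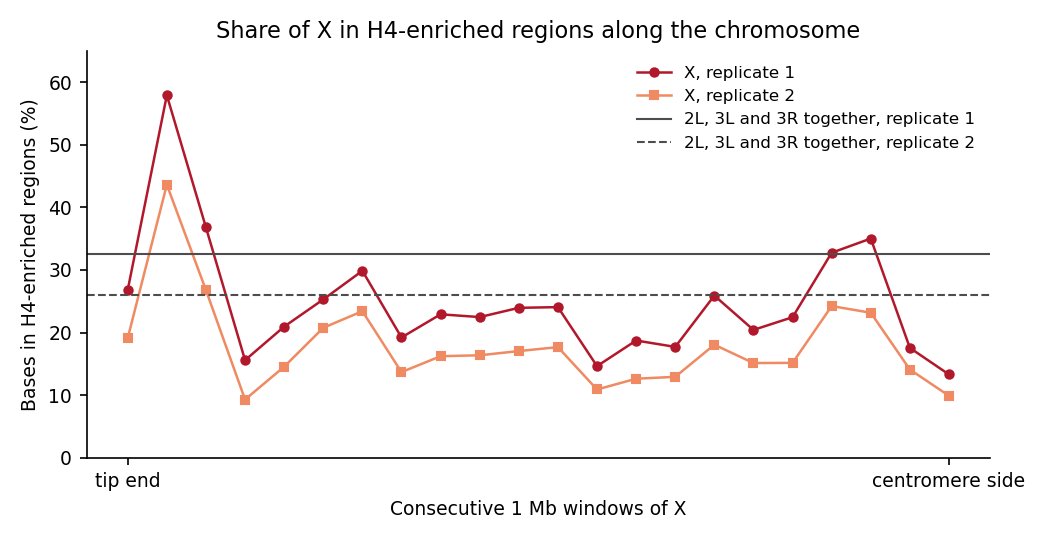
Percentage of bases in H4-enriched regions (y axis) in 22 consecutive 1 Mb windows of X, from the tip end to the centromere side (x axis), in both replicates; horizontal lines mark the share of 2L, 3L and 3R together. The second window stands highest, at 57.9% and 43.6%, and most windows of X lie under the line of their replicate.

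A smaller percentage of the regions of X than of the arms lay in domains. A domain was a chain of at least 5 regions with no gap over 5 kb. In replicate 1, 106 domains held 43.6% of the regions of X, against 56.6% on the arms, and in replicate 2, 92 domains held 35.5%, against 46.4%. Domains spanned 18.4% and 11.2% of the length of X, against 30.0% and 20.0% of the arms. Lone regions, with more than 5 kb on either side, made up 20.1% and 24.1% of the regions of X and 12.2% and 17.2% of those of the arms. Shares of regions in domains and of lone regions depend on how dense the regions are, and X had fewer per Mb. How much of the difference this makes was not tested. The typical domain was of similar span on X and the arms, with medians of 30291 bp and 25150 bp on X and 30206 bp and 27383 bp on the arms.

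Chains built from the bases that both replicates marked gave 79 shared domains on X, over 2.02 Mb or 9.19% of its length. Of these, 20 began between 1000001 and 3000000, and they made up 32.4% of the length of all shared domains on 9.09% of X. The longest ran from 1326328 to 1404767 (78.4 kb), with 81.2% of its bases in regions of replicate 1 and 66.0% in regions of replicate 2. The next spanned 1753347 to 1821032 (67.7 kb, 77.3% and 75.8%) and 2093789 to 2158684 (64.9 kb, 76.8% and 67.3%). The fourth, named after its values were seen, lay near the other end, from 19541943 to 19603432 (61.5 kb, 70.7% and 57.9%), in one of the 4 densest windows by the mean of both lists. Shared domains were not built on the arms, so their number, length and gathering on X have no background here.

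The replicates marked the same bases of X less fully than the same bases of the arms. They shared 3.36 Mb of X, or 61.7% of what replicate 1 covered there and 85.1% of what replicate 2 covered, against 70.0% and 87.6% on the arms. The Jaccard index, shared bases over bases in either list, was 55.7% on X, against 64.2% on 2L, 63.8% on 3L and 63.3% on 3R. The index cannot exceed the ratio of the covered lengths: on X replicate 2 covered 72.5% as many bases as replicate 1, and on the arms 79.9%. As a share of this ceiling the index was 76.7% on X and 79.8% on the arms. With the larger list cut on each sequence, by score, to the covered length of the smaller one, the index was 52.3% on X and 61.0% on the arms, so the difference of -8.03 points became -8.69 points. A sparser list also meets the other less often by position alone, and how much of the difference this makes was not tested.

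By number, 1425 of the 2167 regions of replicate 1 on X, or 65.8% (95% Wilson interval 63.7 to 67.7%), touched a region of replicate 2 by at least 1 base, while the share on the arms was 71.3% (70.4 to 72.2%). In the other direction 1514 of the 1743 regions of replicate 2 on X, or 86.9% (85.2 to 88.4%), touched one of replicate 1, while the share on the arms was 89.1% (88.4 to 89.8%). These intervals take each region as an independent draw and cover only counting error. Touching was more common among wide regions: on X it was 33.8% for regions of replicate 1 under 1500 bp, 51.9% from 1500 to 2000 bp, 80.9% at 2 to 3 kb and 94.0% at 3 to 5 kb, and all 12 regions of 10 kb or more were touched. The gap to the arms was widest from 1500 to 2000 bp, where the arms had 60.9%. In replicate 2 the same classes of X had 67.5%, 84.7%, 98.5% and 99.6%, against 69.8%, 87.3%, 97.8% and 99.8% on the arms.

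**Figure D5:**
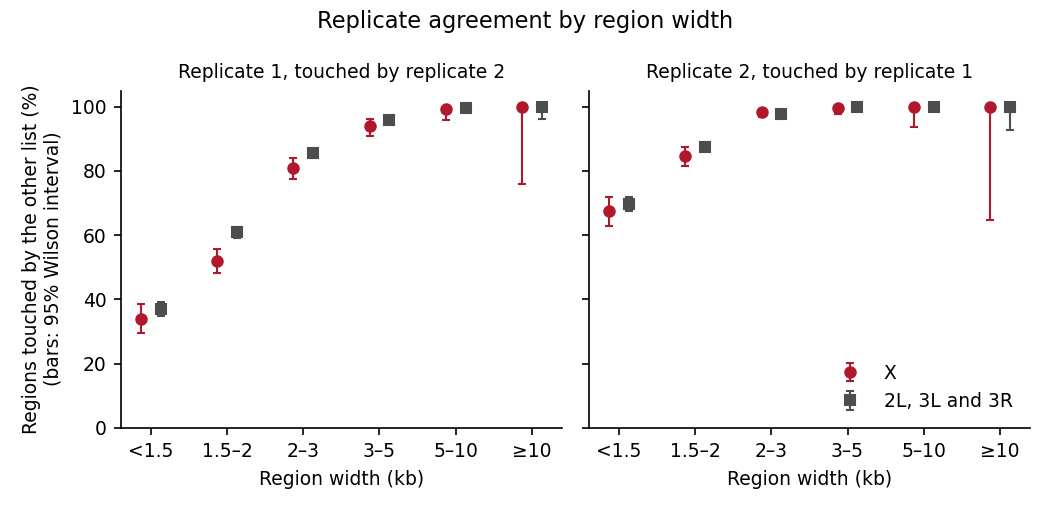
Percentage of H4-enriched regions touched by a region of the other replicate list (y axis; bars are 95% Wilson intervals for counting error) by region width in kb (x axis), for X and for 2L, 3L and 3R together; replicate 1 is on the left and replicate 2 on the right. Regions of 1500 to 2000 bp of replicate 1 have 51.9% on X and 60.9% on the arms, and all regions of 10 kb or more were touched.

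At matched scores, too, a smaller percentage of the regions of X than of the arms was touched. In the top score range of X in replicate 1, 89.3% of the regions of X and 97.8% of those of the arms were touched by replicate 2. In the lowest range the shares were 45.4% on X and 57.0% on the arms. For replicate 2 they were 96.6% on X and 99.0% on the arms in the top range, and 75.7% on X and 83.6% on the arms in the lowest. As given above, regions of X were narrower at a given score. The 742 regions of replicate 1 on X that replicate 2 missed were narrow, with a median of 1588 bp against 2296 bp for the 1425 touched ones, and had lower scores, with a median of 0.587 against 0.689. Of these 742, 736 touched a region of the combined list. The same held on the arms, where 2663 of the 2684 missed regions of replicate 1 touched a combined region. Their median width was 1542.5 bp against 2327.5 bp for touched ones, and their median score 0.472 against 0.594.

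Where both lists had a region, its edges were placed less tightly on X. In 1394 mutual pairs, in which each region was the largest overlap of the other, the median distance between starts was 182 bp and between ends 162 bp, against 133 bp and 130 bp over 6444 pairs on the arms. Both edges lay within 250 bp in 40.8% of the pairs of X and 48.6% of those of the arms. The region of replicate 2 lay wholly inside that of replicate 1 in 46.4% of pairs on X and 42.3% on the arms, and its width was 0.90 times that of replicate 1 on X and 0.94 times on the arms, as medians. Paired scores were less tightly related on X (Pearson r = 0.72, Spearman rho = 0.67) than on the arms (0.81 and 0.77), where the points are regions of the same libraries. Over all regions, scores of X spanned a narrower range from the 5th to the 95th percentile. In replicate 1 it was 0.405 to 0.957 on X and 0.297 to 0.920 on the arms. In replicate 2 it was 0.460 to 0.883 and 0.354 to 0.854. A narrower range can lower a correlation by itself, and its part here was not tested.

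The combined list covered 8.44 Mb of X, while the bases in either replicate list came to 6.03 Mb. Of its 3434 regions on X, 1297 (37.8%, 95% Wilson interval 36.2 to 39.4%) touched a region of each replicate, 689 (20.1%) touched only replicate 1, 204 (5.94%) only replicate 2, and 1244 (36.2%) neither. On the arms 44.1% touched both lists and 32.4% neither. Those on X that touched both were wide, with a median of 3028 bp and a median score of 0.563, whereas those that touched neither had a median of 1269 bp and a score of 0.401. Of these 1244, 681 were narrower than 1301 bp, the smallest width in either replicate list. On the arms it was 2429 of the 4401 that touched neither, a similar share. By bases, 39.8% of the combined list on X was in both replicate lists and 29.3% in neither, against 47.6% and 25.9% on the arms. Combined regions also bridged neighbours: 93 on X joined at least 2 regions of each replicate, a count not made on the arms.

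The combined list had 1130 regions of X that were covered to 50% or more by each replicate list. Among these the 10 longest were 16.0 to 30.5 kb wide. Of these, 5 began in the densest window and 7 before base 3000000. The longest 2 spanned 1379980 to 1410485 (30.5 kb) and 1475211 to 1503321 (28.1 kb) and were broken up in the replicates, into 4 regions in replicate 1 and 6 in replicate 2 for the longer one and 5 in each for the other. The next in this window ran from 1503750 to 1523765 (20.0 kb), 1599625 to 1622599 (23.0 kb) and 1417178 to 1433666 (16.5 kb). Nearer the tip lay a region from 818644 to 837014 (18.4 kb, 96.6% and 85.7% of its bases in replicates 1 and 2), and beyond the dense window one from 2602063 to 2618049 (16.0 kb).

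The other long regions of X stood apart from this gathering. The region from 6707878 to 6731906 (24.0 kb) was 98.7% covered in replicate 1 and 85.0% in replicate 2, and contained the longest single region of replicate 1. The region from 20265264 to 20283037 (17.8 kb) was a single region of 17532 bp in replicate 1 and held the longest single region of replicate 2, with 98.6% and 87.1% of its bases covered. Its score of 0.978 was the highest of the 10 longest. The region from 15608532 to 15625488 (17.0 kb, score 0.899) was likewise a single region in replicate 1, with 99.6% and 77.8% of its bases covered. Across the 10, replicate 2 covered less than replicate 1 in 9.

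By score, the 10 leading regions of those 1130 were other ones, 4.29 to 15.0 kb wide with scores from 1.02 to 1.28. Each was a single region in replicate 1, and 8 were single regions in replicate 2, with 93.5 to 99.8% and 81.3 to 99.3% of their bases covered. The top one lay in the densest window, from 1891415 to 1898711 (7.30 kb), with a score of 1.28 in the combined list, 1.49 in replicate 1 and 1.13 in replicate 2. It was followed by 21581754 to 21586043 (4.29 kb, 1.16), which lies in the sparsest window by the mean of both lists, 10359454 to 10366528 (7.07 kb, 1.13), 11003572 to 11018586 (15.0 kb, 1.12) and 17554513 to 17562352 (7.84 kb, 1.11). The others spanned 19761890 to 19766190, 2020446 to 2026682, 12580502 to 12588090, 17639909 to 17645679 and 18743616 to 18750215. Of the 10, 4 began between 17000001 and 20000000, and none was among the 10 longest.

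X also had long stretches without any enriched region. The longest gap in the combined list ran from 3471097 to 3561388 (90.3 kb), in the sparse window that follows the dense stretch from 1000001 to 3000000, and neither replicate had a region there. It was followed by gaps of 76.8 kb (15896816 to 15973594), 72.1 kb (21686924 to 21759011), 71.0 kb (169008 to 240022) and 54.6 kb (3068828 to 3123468). Of these 5 gaps the one from 21686924 was entered at its first bases by 1 region of replicate 1, and no replicate region reached into the others. Gaps over 50 kb in the combined list numbered 7 on the 22.0 Mb of X and 6 on the 75.5 Mb of the arms, although the longest single gap was on 2L (129452 bp). Measured on the bases that neither replicate marked, gaps over 20 kb numbered 187 on X, or 8.50 per Mb, against 5.57 per Mb on the arms, and held 30.6% of X against 18.8% of the arms. Among single arms 2L came nearest, with 7.34 per Mb and 25.4%, and its longest such gap, 221 kb, exceeded that of X, 113 kb.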

How the data were processed

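H4 was assayed by ChIP-seq in 2 H4 ChIP libraries of wild-type embryos, each called against the input library of the same number, per the labels. The submitters' processing notes name Bowtie 0.12.7 and the file headers name FlyBase r5. Regions were called and replicates merged with a caller, threshold and rule not given in the sources used here. Per the file headers, the deposited lists are in GFF3, and their first and last bases (other values than measurements) were used as 1-based positions. The deposited score of each region is the authors' own, with no stated scale.

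Everything else was computed from these 3 lists: covered bases, gaps, chains of regions, 1 Mb and 100 kb windows, overlaps of at least 1 base, and mutual largest overlaps. The combined list stands for the replicate set and has no spread. No read counts were used, so depth is unknown and no counting interval for the signal of a region can be given. Functions were tested on simulated data built from the widths and gaps of X. Wilson intervals are at 95%. Python 3.11.15, NumPy 2.4.6, SciPy 1.17.1 and Matplotlib 3.10.9 were used.

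The members and all limits (widths, gaps, windows, score ranges) were chosen with earlier results of these data known. Named regions are the 10 longest and 10 highest scoring combined regions covered to 50% or more by each replicate list, the 5 longest combined gaps, the 3 highest and 3 lowest windows, the 3 longest shared domains and the regions at the limit. The longest region of each replicate was named after its values were seen. The gene table at hand is of Release 6, another build than the lists, so no genes are named and no sequences are shown. Alternatives were the higher scoring 50% of each list, a minimum width of 2000 bp, merged gaps, X to base 20000000, the combined list, each replicate and each arm alone, other limits for domains and overlap, and lists of matched covered length.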

Additional observations from a re-analysis of the deposited data

How the results depend on the processing

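Of 87 recomputed values of 11 results, 39 values of 4 results compared X with the arms 2L, 3L and 3R. The other 48 were of X alone. None of these 39 changed direction, but for the ratio, score and width the mean of both lists was judged where both entered. A single list could therefore lie on the other side. With the higher scoring 50% the ratio was 0.97 ± 0.04, within 1 SD of 1, and the 2 lists lay on either side of 1. The width difference was within 1 SD of 0 with X to base 20000000 (-45.5 ± 64.3 bp) and against 2L or 3L alone. With X to base 20000000, 1 of the 2 lists showed no width difference. The ratio for X without its densest window could not change direction. A value counted as moved when it changed by more than 1 SD of the replicates, by more than its Wilson interval for the share of combined regions, or at all for the Jaccard index, which has no spread. No paired analysis was possible because the input libraries had no list of their own, so ChIP and input of the same number were not compared; X and the arms were compared within each ChIP list throughout. With 2 replicates each one lies within 1 SD of their mean by construction, so leaving one out gives the range but no check of stability: with 1 replicate left out, the covered share of X was 17.9 to 24.7%, regions per Mb 79.2 to 98.5, median width 1864 to 1975 bp, median gap 3223 to 4054 bp, regions in domains 35.5 to 43.6%, the ratio to the arms 0.69 to 0.76, the score difference 0.0932 to 0.0945 and the width difference -102 to -18 bp.

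With the higher scoring 50% of each list, X had 63.3 regions per Mb, a median width of 2191 bp, a median gap of 5317 bp, 24.9% of regions in domains, a covered ratio to the arms of 0.97, a score difference of 0.0137, a width difference of -687 bp, a Jaccard index of 53.4% (-4.58 points from the arms) and 39.9% of combined regions touching both lists. Since scores on X were higher, this cut keeps a larger part of X than of the arms. With widths of at least 2000 bp the covered share was 13.7%, with 41.0 regions per Mb, a median width of 2763 bp, a gap of 7982 bp, 15.5% in domains, a ratio of 0.67, a score difference of 0.0808, a width difference of -200.0 bp, an index of 52.4% (-10.5 points) and 39.7% touching both. In the combined list the covered share was 38.4%, with 156 regions per Mb, a gap of 1864 bp, 66.1% in domains, a ratio of 0.80 and a score difference of 0.0637. Merging gaps of at most 100 bp gave an index of 55.7% (-8.04 points), and X to base 20000000 gave 56.0% (-7.70 points). At matched covered length the index was 52.3% (-8.69 points). Against 2L alone the ratio was 0.82, the score difference 0.0949 and the index difference -8.54 points; against 3L alone the last 2 were 0.0897 and -8.11 points; against 3R alone the 3 were 0.63, 0.0960 and -7.66 points. A domain limit of 2500 bp left 15.7% of the regions of X in domains and one of 10000 bp 63.7%. With at least 50% of a combined region required in each replicate list, 32.9% were shared. X without its densest window, an alternative chosen after seeing the data, had a ratio of 0.68. The arms kept their densest windows, so this ratio could only fall. The cause of these shifts was not tested. What depth limits cannot be said, since no read counts were used.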

Other observations

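The highest scores of X were carried by short regions that did not overlap between the replicates. In replicate 1 the top score was 2.34, on a region of 1665 bp from 21759227 to 21760891, and in replicate 2 it was 1.60, on a region of 1711 bp from 21761305 to 21763015. These were the only regions of X with a score above 1.5 in either replicate list. They lay 413 bp apart, next to the end of the 72.1 kb gap described above, so both replicates placed their top score at the same spot of the centromere side without sharing a base. The combined list had 2 regions there, from 21759012 to 21760870 (score 1.32) and from 21761142 to 21763291 (score 1.41), each over one of the replicate regions. These positions were chosen after their values were seen.

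In the combined list 5 regions of X scored above 1.5, between 1001 and 1889 bp wide, and 0 of them touched a region of a replicate list. This count was not made on the arms, where the highest combined score was 3.26. The highest score of X, 2.97, was on a region of 1001 bp from 4683595 to 4684595. This score of 2.97, the same to the last deposited digit, was given to 2 regions of X and 1 region of 3L. Of the 3434 combined regions of X, 744 shared their exact score with another region of X. Ties within a sequence were common on the arms too, with 600 of 3863 regions on 2L, 628 of 4174 on 3L and 1029 of 5561 on 3R.

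The combined list also named 14 regions of the genome as depleted of H4, and 0 of them lay on X. X held 15.2% of the enriched regions of that list, so with 14 regions this count says little about X. Each replicate list named 0 depleted regions.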
